A study of Rattus norvegicus with 4 samples.

Results

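Integrins and laminins were examined in the postnatal rat carotid body (CB), the small organ at the carotid bifurcation whose glomus cells sense arterial oxygen. Members were chosen by gene symbol, with earlier results of these data known. They were every entry named Itga or Itgb followed by a number or letters, and every Lama, Lamb or Lamc chain. Binding proteins whose symbols hold "bp" were left out. This gave 36 of the 32883 genes listed, of which 10 encode laminin chains, 25 encode integrin subunits and 1, Itgbl1, encodes a secreted integrin-like protein that is not a receptor subunit. Lama3, Lamb4 and Itgad were not analysed here.

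Whole CBs of untreated Sprague Dawley rats, raised by mothers bought while pregnant, were compared at day 5 (neonates) and day 21 (adults), with 2 poly A+ libraries per age. Each library pooled CBs from 6 pups or 3 adult rats. The paper describes larger pools and a further replicate per age, and states that females and males were included. Because animals were pooled, p-values measure the spread between pools and not between single animals. Estimated counts summed to between 36286191 and 39476110 per library, and levels are given as CPM (counts scaled to the library total) after TMM normalization, on which 3 counts, the floor used here for counting error, equal 0.0736 CPM in the library where they weigh least and 0.0845 CPM where they weigh most.

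Laminins are cross-shaped trimers of an alpha, a beta and a gamma chain that polymerize into the sheet at the base of epithelia, endothelia, muscle and Schwann cells. Integrins are heterodimers of an alpha and a beta subunit that cross the cell membrane, bind laminin, collagen or fibronectin outside the cell, and link to actin inside through talin, kindlin and the ILK complex. In peripheral nerve and vessels, laminin-binding integrins such as the alpha6 with beta4 pair anchor cells to the basement membrane, and alphav with beta8 binds latent TGF-beta. In bulk tissue, fewer cells of a type and less RNA per cell cannot be told apart.

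Promoters of 3 members called below are shown. Itgb8 and Itgav form 1 receptor and were both higher in adults. Lamc1 encodes the gamma chain of most laminin trimers and was higher in adults too. These are not the 3 largest differences, since Itga1 and Itgb3 differed more than Itgav and Lamc1. Each sequence is the 250 bases before the start given by RefSeq in the assembly GRCr8, 5′ to 3′ on the gene's strand. Capitals mark the GC box GGGCGG read on either strand.
Itgb8 (chr6:146351246-146351495, minus strand): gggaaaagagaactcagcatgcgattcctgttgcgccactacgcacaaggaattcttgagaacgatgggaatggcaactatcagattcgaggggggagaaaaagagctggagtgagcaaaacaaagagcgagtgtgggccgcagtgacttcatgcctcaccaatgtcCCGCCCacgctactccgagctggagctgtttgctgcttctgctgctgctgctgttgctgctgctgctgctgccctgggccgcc
Itgav (chr3:89245132-89245381, plus strand): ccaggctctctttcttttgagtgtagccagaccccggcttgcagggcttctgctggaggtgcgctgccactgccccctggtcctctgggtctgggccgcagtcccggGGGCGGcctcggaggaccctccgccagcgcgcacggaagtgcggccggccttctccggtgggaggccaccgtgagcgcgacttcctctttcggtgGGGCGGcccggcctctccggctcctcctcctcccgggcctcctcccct
Lamc1 (chr13:68051987-68052236, minus strand): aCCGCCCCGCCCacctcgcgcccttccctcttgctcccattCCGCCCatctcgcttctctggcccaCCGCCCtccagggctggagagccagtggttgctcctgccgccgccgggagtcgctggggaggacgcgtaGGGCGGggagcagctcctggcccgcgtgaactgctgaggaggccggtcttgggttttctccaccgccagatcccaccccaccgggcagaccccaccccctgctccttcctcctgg
The Itgb8 window held 1 GC box, the Itgav window 2 and the Lamc1 window 5, of which 2 overlap by 1 base. Promoters were found for 28 of the 36 members. The GC box was present in 15 of these 28 (53.6%), against 32.4% of all 27457 promoters of the same length. At 5, Lamc1 had the most of these 28, while the windows of the called members Itga1, Itga8 and Itgb7 held 0. CCAAT was found in 5 of the 28 (17.9%, against 34.3% of all), TATAAA in 2 (7.14%, against 13.1%), TGANTCA, the AP-1 site, in 1 (3.57%, against 6.36%) and the E-box CACGTG in 0 (against 5.79%), each read on both strands. A match is a description of the letters in the window and says nothing about a factor. The windows of the 28 members had a median of 10 CpG and 57.8% G and C, against 6 CpG and 52% over all promoters.

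Over the whole family, 33 of the 36 members passed the filter of 1 CPM, by library total, in 2 libraries and were tested with all other genes, neonate over adult. A gene was called when edgeR's quasi-likelihood test gave an adjusted p under 0.05 together with a difference of 2-fold or more. By this rule 13 members were lower in neonates, that is higher in adults, and 0 were higher in neonates. These shares of the 33 tested are 39.4% and 0%, beside 13.2% lower and 7.68% higher among all 13843 genes tested. The 0 toward neonates stands beside 6 members that were higher at an unadjusted p under 0.05 in edgeR, and it was 0 with DESeq2 and limma-voom as well. Without a minimum fold, 19 of the 33 members were lower in neonates, where 31.1% of all genes tested were, and 5 were higher, where 31.2% of all genes were. Both neonatal libraries lay below both adult libraries for 19 members and above them for 6, where 41.7% and 41.3% of all genes did so. The median log2 fold change was -0.68 over the members tested and -0.0029 over all genes. In other settings the median of the members ran from -0.92 (library size alone) to -0.47 (without adult replicate 2). With a mean of at least 5 CPM it was -0.49 over the 22 members fitted.

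Of the 13 members, 11 had at least 1 CPM in all 4 libraries, while Itgb7 and Itgam reached it, by library total, only in the adult libraries and had to differ in order to pass the filter. With no filter on low counts, all 36 members were fitted, and 14 were lower and 1, Lama1, was higher in neonates. Of all 19411 genes fitted there, 1976 were lower and 1134 higher. Scaled to library size alone, the median of all genes moved to -0.25. The calls over all genes went from 36.8% to 21.6% higher in neonates. Under this scaling the members gave 15 lower and 0 higher. Of the 13843 genes, 2549 were then lower and 704 higher, against 1822 and 1063 in the main comparison. The median was -0.90 over the 25 integrin members tested and 0.10 over the 8 laminin chains tested. That difference itself was not tested.

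**Figure D1:**
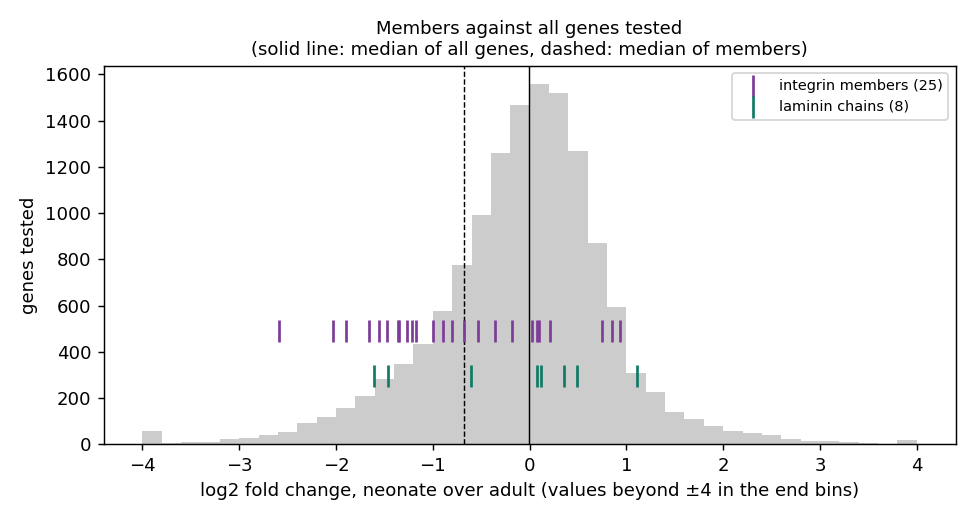
Histogram of log2 fold changes (x axis, neonate over adult) of all 13843 genes tested (y axis, number of genes), with ticks for the 25 integrin members and the 8 laminin chains tested, placed at a height that carries no value. The median of the members (dashed line, -0.68) lies left of that of all genes (solid line, -0.0029), and most ticks left of -1 are integrins.

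**Figure D2:**
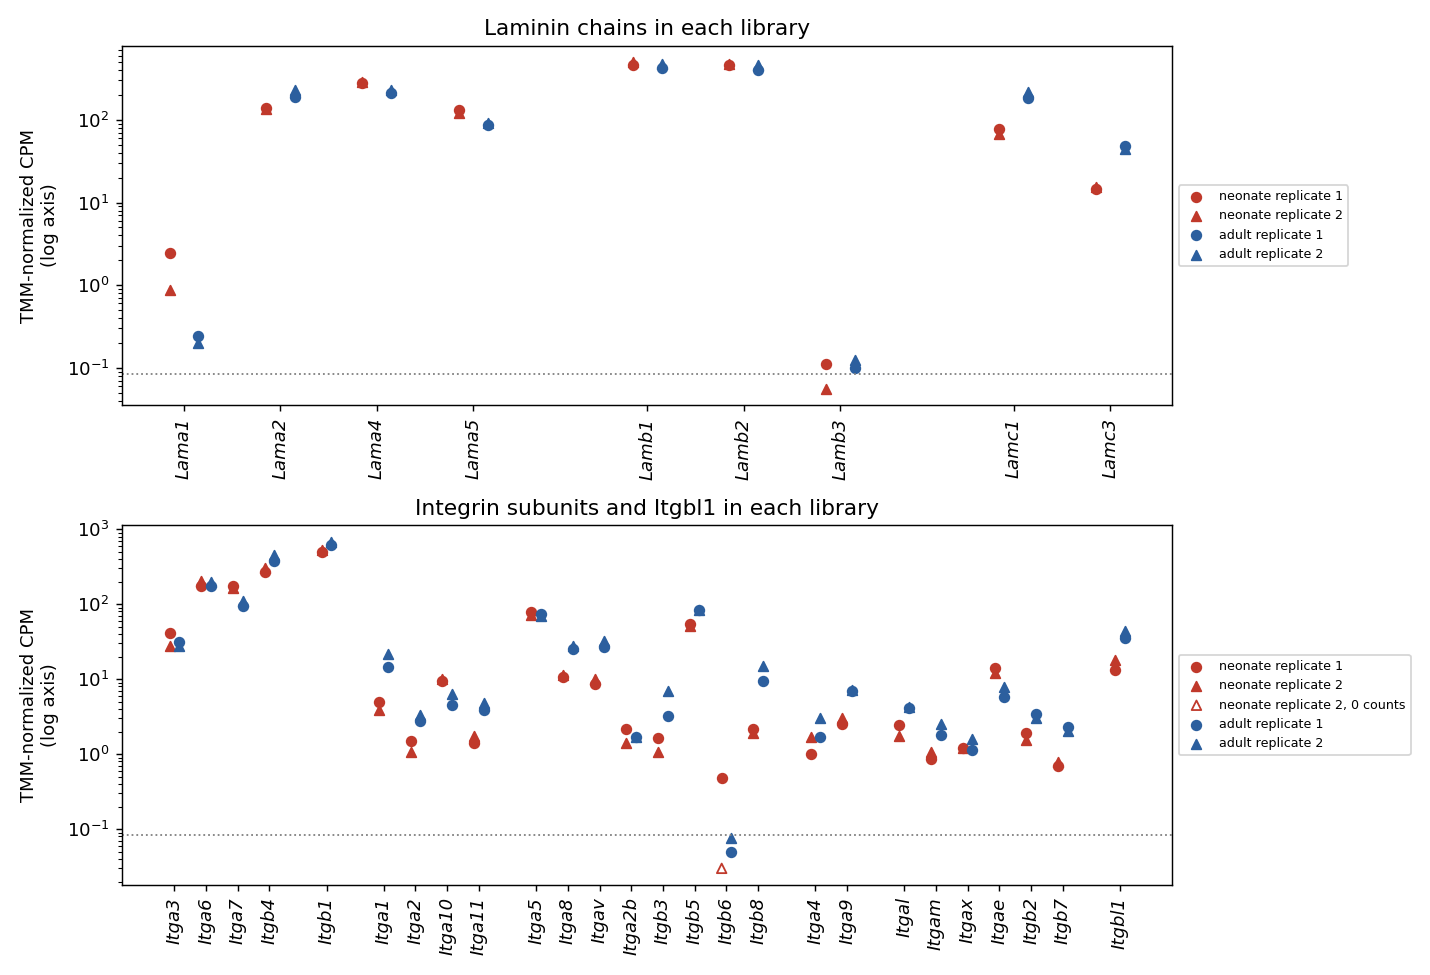
Levels of the members in each of the 4 libraries as TMM-normalized CPM (log y axis), with laminin chains above and integrin members below, grouped by role. The dotted line is the highest floor of 3 counts (0.0845 CPM) and the open symbol is a library with 0 counts. Both adult symbols sit above both neonatal symbols for Lamc1, Lamc3, Itga1, Itgav and Itgb8, while Lamb1 and Lamb2 overlap between ages.

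Among laminin alpha chains, which carry the sites for cell receptors, the members measured at high levels moved in different directions and by less than 2-fold. Lama2, the chain of muscle and Schwann cell basement membranes, had 141 and 135 CPM in neonates and 191 and 228 CPM in adults, without overlap. Its log2 fold change was -0.60 (standard error, SE, 0.096, edgeR adjusted p = 0.00060). Lama4, the chain of vessel walls and nerve, had 281 and 284 CPM in neonates against 209 and 233 CPM in adults (log2 fold change 0.36, SE 0.084, adjusted p = 0.0054 in edgeR). Lama5, common in mature endothelial and epithelial basement membranes, had 130.1 and 121 CPM against 86.3 and 92.6 CPM (log2 fold change 0.49, SE 0.080, adjusted p = 0.00072 in edgeR). So Lama2 was higher in adults, and Lama4 and Lama5 were higher in neonates. The difference of Lama4 was 0.11 with library size alone, where its adjusted p was 0.32 (edgeR).

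Lama1, the chain of the early embryonic basement membrane, was too low for the filter and was not tested in the main comparison. It had 86 and 31 counts in neonates and 10 and 8 in adults, or 2.42 and 0.863 CPM against 0.245 and 0.202 CPM, so all 4 libraries were above the floor and the ages did not overlap. In the fit without a filter its log2 fold change was 2.83 (SE 0.65, edgeR adjusted p = 0.0062). The neonatal level rested mainly on neonate replicate 1, which is also the library with 1773 CPM of Pth, the parathyroid hormone gene, against 208 CPM in the other neonatal library and 0 in both adult libraries. The part of parathyroid or other epithelial tissue in the level of Lama1 was not tested.

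The laminin beta chains did not pass the test. Lamb1, the common early chain, had 455 and 498 CPM in neonates and 429 and 474 CPM in adults (log2 fold change 0.078, SE 0.093, edgeR adjusted p = 0.48). Lamb2, the chain of synaptic, vascular and kidney basement membranes, had 460.2 and 478 CPM against 399 and 463 CPM (log2 fold change 0.12, SE 0.096, adjusted p = 0.29 in edgeR). Libraries of the ages overlapped for both chains, and both had a negative sign under library size alone. Lamb3, a chain of epidermal laminin, was not tested, with between 2 and 5 counts per library.

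Among laminins tested in the main comparison, the chains called were gamma chains. Lamc1, the gamma chain of most laminin trimers, had 76.7 and 68.3 CPM in neonates and 183 and 217 CPM in adults, and was 2.76-fold higher in adults (log2 fold change -1.46, SE 0.10, edgeR adjusted p = 8.8e-06). Lamc3, a gamma chain found in nerve, retina and brain, had 14.7 and 15.5 CPM against 48.0 and 44.2 CPM, and was 3.05-fold higher in adults (log2 fold change -1.61, SE 0.10, adjusted p = 5.4e-06 in edgeR). Adult libraries were well apart from neonatal ones for both genes, and both were called under every alternative. Their estimated counts are not whole numbers in every library, as happens where reads are shared with another sequence, so their levels carry that uncertainty.

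Laminin-binding integrin subunits were among the members with the most reads, and none reached a 2-fold difference. Itgb4, whose product pairs with alpha6 and anchors basal epithelium and myelinating Schwann cells, had 272 and 302 CPM in neonates and 378 and 455 CPM in adults. It was 1.45-fold higher in adults (log2 fold change -0.54, SE 0.11, edgeR adjusted p = 0.0023). Itga6, its partner, had 173 and 203 CPM against 174 and 196 CPM (log2 fold change 0.020, SE 0.10, adjusted p = 0.87 in edgeR). Itga7, the laminin receptor subunit of muscle and of vessel walls, had 177 and 164 CPM in neonates and 94.1 and 109 CPM in adults. Its log2 fold change was 0.75 (SE 0.091, edgeR adjusted p = 0.00013), among the 5 members above zero that passed without a minimum fold. Itga3, which binds laminins of epithelium and vessels, had 40.9 and 27.6 CPM against 31.4 and 27.7 CPM, and the ages overlapped (log2 fold change 0.21, adjusted p = 0.29 in edgeR). It turned to -0.098 without neonate replicate 1.

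Markers of Schwann cells, which express Itgb4 and Lama2, differed between the neonatal libraries. Their summed level was 1208 CPM in the first neonatal library, 2588 CPM in the second and 2112 and 2267 CPM in adults. Of the 7 markers, 0 were past 2-fold at an adjusted p under 0.05 in edgeR, with 1 higher and 1 lower in neonates without a minimum fold. In the same neonatal libraries Itgb4 was at 272 and 302 CPM. The part of Schwann cells in these members was not tested.

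Itgb1 encodes the beta subunit shared by the laminin, collagen and most fibronectin receptors. It had 491 and 523 CPM in neonates and 624 and 680.0 CPM in adults, 1.29-fold higher in adults without overlap (log2 fold change -0.36, SE 0.091, edgeR adjusted p = 0.0074).

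**Figure D3:**
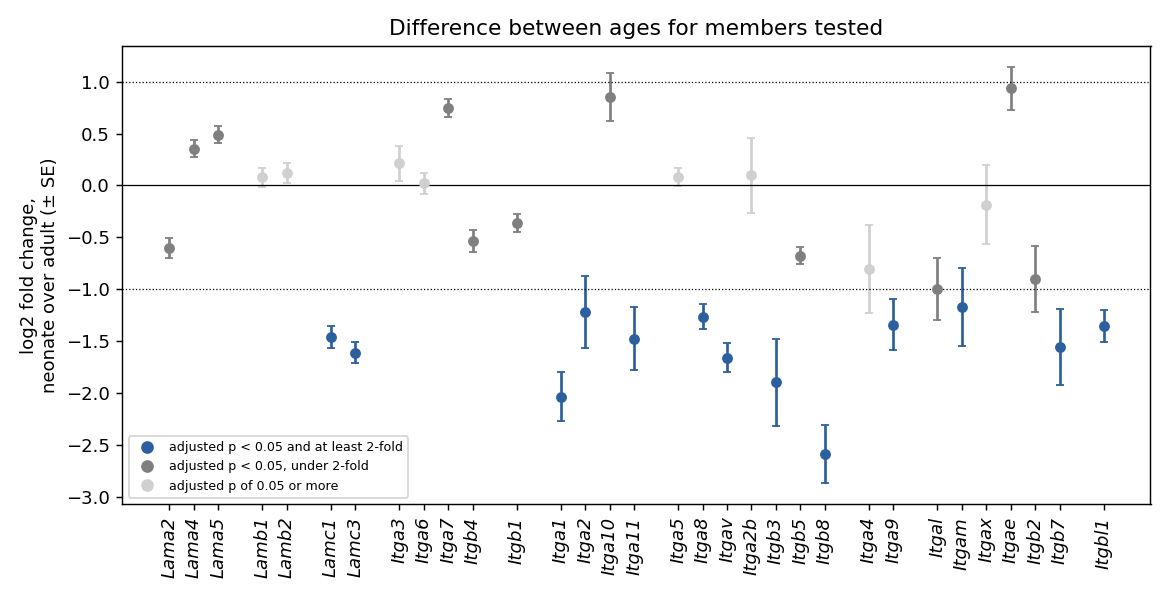
Log2 fold changes (y axis, neonate over adult, bars are standard errors from edgeR's quasi-likelihood fit) of members tested, grouped by role along the x axis. Blue points are the 13 members past an adjusted p of 0.05 and 2-fold, all of them below -1, and dotted lines mark 2-fold in either direction.

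Collagen-binding alpha subunits, all of which pair with beta1, were at least 2-fold higher in adults for 3 of the 4 members. That is 75%, beside 13.2% of all genes tested. Itga1, a receptor for basement membrane collagen on smooth muscle, pericytes and fibroblasts, had 5.01 and 3.87 CPM in neonates and 14.6 and 21.9 CPM in adults. It was 4.10-fold higher in adults (log2 fold change -2.04, SE 0.24, edgeR adjusted p = 0.00010). Itga11, a fibrillar collagen receptor of fibroblasts, had 1.41 and 1.73 CPM against 3.88 and 4.86 CPM, 2.78-fold higher in adults (log2 fold change -1.48, SE 0.31, adjusted p = 0.0027 in edgeR). Itga2, which neighbours Itga1 in the RefSeq order, had 1.52 and 1.09 CPM against 2.77 and 3.30 CPM (log2 fold change -1.22, SE 0.34, adjusted p = 0.013 in edgeR). Its call was lost without adult replicate 2 (-1.09, adjusted p = 0.11 in edgeR) and without neonate replicate 2 (-0.99, adjusted p = 0.030). Itga10, the collagen receptor subunit best known from cartilage, went the other way, with 9.49 and 10.2 CPM in neonates and 4.52 and 6.38 CPM in adults. Its log2 fold change was 0.85 (SE 0.23, edgeR adjusted p = 0.0098), and it passed 2-fold only without adult replicate 2 (1.12, adjusted p = 0.010).

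Among subunits of receptors that bind the RGD motif of fibronectin, vitronectin or latent TGF-beta, 4 of the 7 tested were at least 2-fold higher in adults. This share is 57.1%, beside 13.2% of all genes tested. Itgb8, whose product pairs only with alphav, had 2.17 and 1.92 CPM in neonates and 9.50 and 15.2 CPM in adults. At 6.02-fold it had the largest difference of all members tested (log2 fold change -2.59, SE 0.28, edgeR adjusted p = 7.3e-05). Its partner Itgav had 8.50 and 10.1 CPM against 26.7 and 32.0 CPM, 3.16-fold higher in adults (log2 fold change -1.66, SE 0.14, adjusted p = 2.3e-05 in edgeR). Both were called under every alternative, and their promoters are the first pair printed above. Of the other beta partners of alphav, Itgb3 had 1.63 and 1.09 CPM in neonates and 3.22 and 6.93 CPM in adults. Its log2 fold change was -1.90 (SE 0.42, edgeR adjusted p = 0.0038), and -1.24 with an adjusted p of 0.063 without adult replicate 2. Itgb5 had 53.7 and 50.8 CPM against 82.6 and 84.5 CPM (log2 fold change -0.68, SE 0.084, adjusted p = 0.00016 in edgeR). Itgb6, an epithelial subunit, was not tested, with 17 and 0 counts in neonates and 2 and 3 in adults, and its only library above the floor was neonate replicate 1.

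Itga8, a subunit of smooth muscle and fibroblasts that binds nephronectin and fibronectin, had 10.8 and 11.4 CPM in neonates and 25.4 and 27.8 CPM in adults. It was 2.40-fold higher in adults (log2 fold change -1.26, SE 0.12, edgeR adjusted p = 3.6e-05). Itga5, the main fibronectin receptor subunit, had 79.6 and 72.2 CPM against 73.8 and 69.9 CPM, and the ages overlapped (log2 fold change 0.079, SE 0.088, adjusted p = 0.45 in edgeR). Itga2b, the platelet subunit, lay between 1.42 and 2.20 CPM in all libraries (log2 fold change 0.096, SE 0.36, adjusted p = 0.83 in edgeR). Platelet markers were low, with 1 of 7 at 0 in all libraries, and Pf4, the 1 tested, had 4.31 and 5.09 CPM in neonates and 1.69 and 1.54 CPM in adults.

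The sum of smooth muscle and pericyte markers was higher in adults, as were Itga1 and Itga8. Itga7, the subunit of muscle and vessel walls, went the other way (log2 fold change 0.75). The markers summed to 949 and 938 CPM in neonates and 1798 and 1905 CPM in adults. Rgs5, a pericyte gene, had 302 and 265 CPM in neonates against 1009 and 971 CPM in adults. Of these 6 markers, 2 were at least 2-fold lower in neonates, while Acta2, the smooth muscle actin, had 247 and 273 CPM against 259.6 and 273 CPM (adjusted p = 0.74 in edgeR). Fibroblast markers summed to 6200 and 7528 CPM in neonates and 8286 and 8695 CPM in adults, with 1 of 4, Dcn, past 2-fold. Endothelial markers summed to 991 and 1033 CPM against 907 and 946 CPM, with 0 of 6 past 2-fold. The part of these cells in the integrin levels was not tested.

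Itga9 and Itga4 encode related alpha subunits that bind tenascin, osteopontin or VCAM1. Itga9 had 2.51 and 3.06 CPM in neonates and 6.92 and 7.23 CPM in adults, 2.54-fold higher in adults (log2 fold change -1.34, SE 0.25, edgeR adjusted p = 0.0014). Itga4, carried by leukocytes and neural crest derivatives, had 1.01 and 1.67 CPM against 1.67 and 3.02 CPM, and the ages overlapped narrowly (log2 fold change -0.80, SE 0.42, adjusted p = 0.13 in edgeR). Without neonate replicate 2 Itga4 was at -1.20 with an adjusted p of 0.043 in edgeR.

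Leukocyte integrins other than Itgae were low, at most 4.21 CPM in any library, while Itgae lay between 5.72 and 14.0 CPM. Without a minimum fold, 4 of the 6 tested were lower in neonates and 1 was higher in edgeR, where 31.1% and 31.2% of all genes were. By the 2-fold rule 2 were called lower (33.3%, beside 13.2% of all genes), Itgb7 and Itgam. Both passed the filter through the adult libraries only. Itgb7, the beta subunit of gut-homing lymphocytes and mast cells, had 25 and 28 counts in neonates and 95 and 81 in adults, 2.94-fold higher in adults (log2 fold change -1.56, SE 0.37, edgeR adjusted p = 0.0053). Its adjusted p was 0.053 without adult replicate 1, with a log2 fold change of -1.46. Itgam, the alpha subunit of macrophages and neutrophils, had 31 and 38 counts against 74 and 101 (log2 fold change -1.17, SE 0.37, adjusted p = 0.022 in edgeR). It lost its call without adult replicate 1 (-1.40, adjusted p = 0.0501) and without adult replicate 2 (-0.91, adjusted p = 0.21).

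Itgb2, the beta subunit that pairs with the Itgal, Itgam and Itgax chains but not with Itgae, had 1.94 and 1.53 CPM in neonates and 3.48 and 3.00 CPM in adults (log2 fold change -0.90, SE 0.32, edgeR adjusted p = 0.033). Itgal, the alpha subunit of LFA-1, had 2.45 and 1.73 CPM against 4.12 and 4.21 CPM. At (log2 fold change -0.996, SE 0.30, adjusted p = 0.017 in edgeR) it lay just short of 2-fold, and it was called under 5 alternatives. Without neonate replicate 1, Itgb2 (-1.08) and Itgal (-1.27) were both past 2-fold. Itgax lay between 1.13 and 1.61 CPM in all libraries (log2 fold change -0.19, adjusted p = 0.69 in edgeR), and since RefSeq also lists this symbol as a synonym of Itgad, its identity is uncertain. Itgae, the alpha subunit of lymphocytes that bind E-cadherin, was the leukocyte member higher in neonates, with 14.0 and 12.1 CPM against 5.72 and 7.91 CPM. Its log2 fold change was 0.94 (SE 0.21, edgeR adjusted p = 0.0038), and it passed 2-fold without neonate replicate 2 (1.04) or adult replicate 2 (1.19).

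Leukocyte markers moved with these subunits. Their summed level was 96.9 and 111 CPM in neonates and 159 and 156 CPM in adults. Of 8 markers tested, 3 were at least 2-fold lower in neonates and 0 higher, with Ptprc, the pan-leukocyte CD45, at 3.66 and 5.09 CPM against 10.6 and 12.2 CPM. Of the lymphocyte markers, Cd3e was at most 0.221 CPM and Cd3g at most 1.17 CPM in any library, and both were too low to be tested. The part of leukocytes in the levels of all these subunits, Itgae included, was not tested.

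Itgbl1, the secreted integrin-like protein, had 13.3 and 17.8 CPM in neonates and 35.7 and 43.7 CPM in adults. It was 2.56-fold higher in adults (log2 fold change -1.35, SE 0.15, edgeR adjusted p = 9.5e-05) and was called under every alternative.

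**Figure D4:**
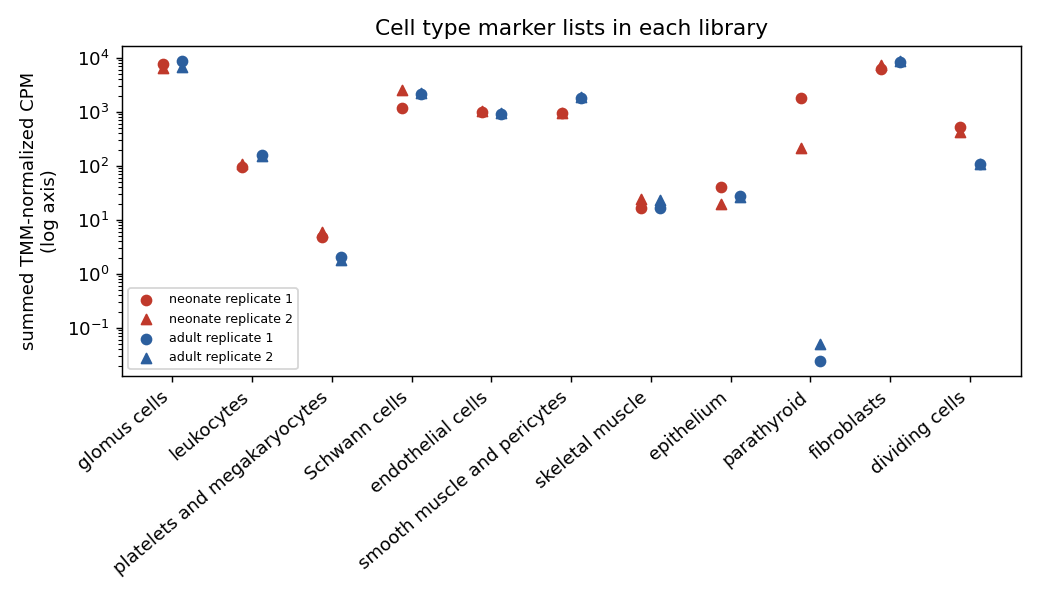
Summed TMM-normalized CPM (log y axis) of each cell type marker list (x axis) in the 4 libraries. Leukocyte, smooth muscle and pericyte, and fibroblast sums are higher in both adult libraries, dividing cell sums are higher in both neonatal libraries, and the parathyroid sum is 1796 CPM in the first neonatal library and 212 CPM in the second.

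The tissue carried its defining cells at both ages, with Th, the rate-limiting enzyme of dopamine synthesis in glomus cells, between 837 and 1407 CPM. Glomus markers summed to 7788 and 6446 CPM in neonates and 8837 and 6920 CPM in adults. Genes of dividing cells summed to 516 and 434 CPM in neonates against 108 and 110 CPM, with 5 of 5 at least 2-fold higher in neonates. Within adults, replicate 2 was above replicate 1 for 27 of the 33 members tested, where 50.8% of all genes tested were.

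To see whether chains that fill the same place changed by different amounts, ratios of CPM were taken within each library for 9 pairs. Gene lengths were not used, so the size of a ratio says nothing about which chain was more abundant, and only its change between ages is read. An exact two-sided permutation test on 2 libraries per age cannot go below p = 0.333, so no pair could reach 0.05. The Lama2 to Lama4 ratio was 0.500 and 0.475 in neonates and 0.914 and 0.980 in adults, a 1.94-fold higher ratio in adults (exact permutation p = 0.333, adjusted over the 9 pairs 0.50). The Itga7 to Itga6 ratio was 1.02 and 0.808 in neonates and 0.542 and 0.554 in adults, 1.66-fold higher in neonates with the same p. Itgb3 relative to Itgb5 was 2.22-fold higher in adults and Itga1 relative to Itga11 was 1.46-fold higher in adults, again without overlap and at the same p. Lama1 relative to Lama5 was 4.63-fold higher in neonates, at the counts of Lama1 given above. The log2 difference of this ratio was 2.21, and it was 1.52 without neonate replicate 1 and 2.90 without neonate replicate 2.

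The Lamb1 to Lamb2 ratio did not separate the ages, with 0.990 and 1.04 in neonates and 1.08 and 1.02 in adults (exact permutation p = 0.667). The Lamc1 to Lamc3 ratio was 5.22 and 4.41 in neonates and 3.80 and 4.91 in adults, and overlapped between ages (exact permutation p = 0.667). The Itga6 to Itga3 ratio overlapped too, from 4.22 to 7.35 over all libraries. Lama4 relative to Lama5 was 1.10-fold higher in adults, without overlap.

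**Figure D5:**
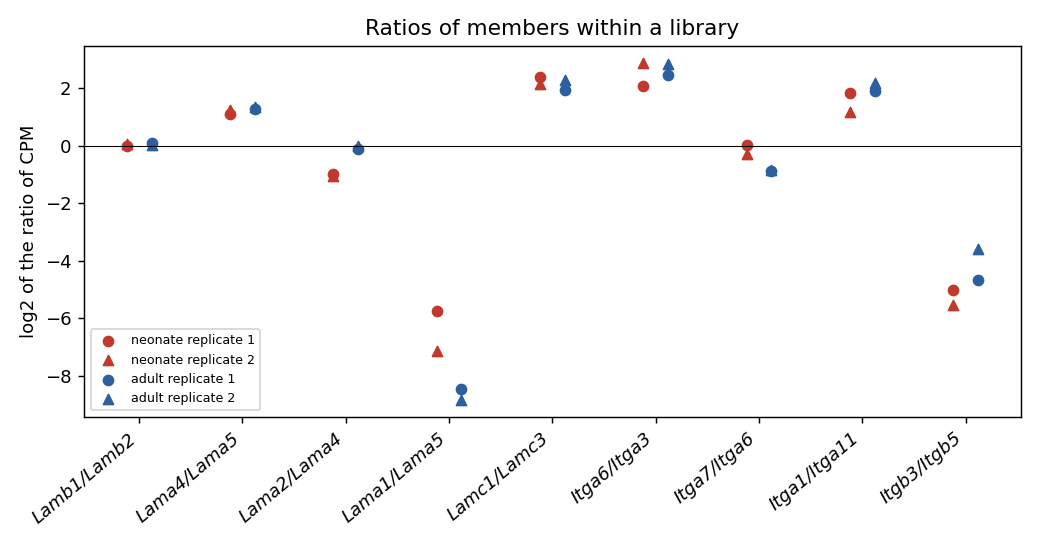
Log2 of the ratio of CPM of 2 members within each library (y axis) for the 9 pairs (x axis), 1 symbol per library. Both adult symbols lie above both neonatal symbols for Lama2/Lama4 and below them for Itga7/Itga6, while Lamb1/Lamb2 overlaps between ages.

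Other genes of the adhesion pathway were read from lists of 56 genes, of which 54 were tested. By the same edgeR test and threshold, 10 were lower in neonates and 2 were higher. These are 18.5% and 3.7% of the 54, beside 13.2% and 7.68% of all genes tested. Of the 10, Parvg and Ntn4 reached 1 CPM only in the adult libraries and had to differ in order to pass the filter. Of the 24 activators, adaptors and kinases tested, 5 were at least 2-fold lower in neonates and 0 higher, with a median log2 fold change of -0.26. Their shares were 20.8% and 0%, beside 13.2% and 7.68% of all genes tested. The 3 largest toward adults were Parvg, the parvin of blood cells, at -2.03, Tns1, a tensin that binds beta tails, at -1.94 and Tln2, a talin that activates integrins, at -1.37. Toward neonates, all under 2-fold, they were Itgb1bp1, a negative regulator of beta1, at 0.66, Ilk, the kinase-like scaffold on beta tails, at 0.52 and Sharpin, an integrin inhibitor, at 0.44. Tln1, the widely used talin, was at -0.34 (SE 0.076, edgeR adjusted p = 0.0039).

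Among 11 laminin partners and other laminin receptors tested, 2 were at least 2-fold lower in neonates and 1 higher, with a median of -0.17. These counts are 18.2% and 9.09%, near the 13.2% and 7.68% of all genes tested. Ntn4, a netrin that binds laminin gamma chains and that passed the filter through its adult libraries alone, had 0.845 and 0.251 CPM in neonates and 3.56 and 6.12 CPM in adults (log2 fold change -3.14, SE 0.52, edgeR adjusted p = 0.00082). Sgcd, a sarcoglycan, was at -1.21, and Dag1, the dystroglycan receptor of laminin, at -0.89. Toward neonates, Agrn, the laminin-binding proteoglycan agrin, had 697 and 669 CPM against 315 and 332 CPM (log2 fold change 1.08, SE 0.086, adjusted p = 1.6e-05 in edgeR). Nid2 was higher in neonates at 0.60, while Nid1, the other linker of laminin to collagen IV, was at -0.027 with an adjusted p of 0.81 in edgeR.

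Of 19 other integrin ligands tested, 3 were at least 2-fold lower in neonates and 1 was higher, with a median of -0.14. These counts are 15.8% and 5.26%, near the 13.2% and 7.68% of all genes tested. Thbs1, thrombospondin, was at -1.64, Npnt, the ligand of alpha8, at -1.15 and Vtn, vitronectin, at -1.01. Postn, periostin, a ligand of alphav integrins, had 1507 and 1750 CPM in neonates and 274 and 315 CPM in adults (log2 fold change 2.47, SE 0.12, edgeR adjusted p = 1.9e-06). Spp1 (0.78) and Madcam1 (0.73) followed toward neonates.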

How the data were processed

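Poly A+ RNA of CBs was sequenced at day 5 and day 21, 2 libraries per age. The authors trimmed the reads, mapped them to Rnor_6.0 with STAR, and quantified genes with Salmon (version 1.5.2 in the submitters' processing notes). The deposited values are estimated counts per gene, not normalized. Depth was 36286191 to 39476110 counts per library.

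After rounding, the counts were tested with edgeR 4.0.16 under R 4.3.3 (TMM, quasi-likelihood test, Benjamini-Hochberg over the 13843 genes tested). Removed were 636 genes annotated as other than protein-coding by symbol in the RefSeq table of GRCr8 (13665 genes without an annotation were kept), and then genes under 1 CPM in more than 2 libraries. Standard errors are the log2 fold change over the square root of F. Genes were called at an adjusted p under 0.05 and 2-fold. Values are printed for every called member, the other members by role, and the 3 genes per direction with the largest change in each pathway list. A rule naming the highest member per coding length was dropped, because no coding lengths were used. The 3 promoters were chosen after the values were seen. A member and a marker gene are not reported here. Members and lists were chosen with earlier results of these data known.

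Alternatives were DESeq2 1.42.0, limma-voom (limma 3.58.1), RLE factors, library size alone, no filter, a mean CPM of 5 or more, no removal by biotype, no minimum fold, a replicate block, leaving out each library and, for ratios, a prior count of 2. Procedures were tested on simulated data. Ratios were tested with scipy 1.17.1.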

Additional observations from a re-analysis of the deposited data

How the results depend on the processing

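Of the 13 members called lower in neonates, 9 were called under every alternative in which they were fitted (DESeq2, limma-voom, RLE factors, library size alone, no filter, a mean CPM of 5 or more, no removal by biotype, a replicate block and each library left out). The exceptions were Itga2, Itgb3, Itgam and Itgb7, each through leaving out 1 library. Where a library is left out, the lone library of that age is assumed to vary like the others.

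The count of members lower in neonates was 8 with a mean of at least 5 CPM, when only 22 members were fitted, and ran from 10 to 15 with 1 library left out. Members higher in neonates were 1 without a filter (Lama1), 5 without a minimum fold, and from 0 to 2 with 1 library left out, among them Itgae without neonate replicate 2 and Itga10 and Itgae without adult replicate 2. Over all genes, 1063 were higher and 1822 lower in the main comparison. Library size alone gave 704 higher and 2549 lower. A mean of at least 5 CPM gave 656 higher and 1168 lower of the 11336 genes fitted. No minimum fold gave 4325 higher and 4300 lower. Pathway genes were 1 higher with library size alone, 6 lower with a mean of at least 5 CPM, and 12 higher and 25 lower without a minimum fold. The cause was tested in none of these.

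Signs turned only among members with an adjusted p of 0.05 or more in edgeR. With library size alone these were Lamb1 (-0.17), Lamb2 (-0.12), Itga3 (-0.036), Itga6 (-0.22), Itga5 (-0.17) and Itga2b (-0.15). Itga6 was also at -0.0052 without a filter and -0.017 with a mean of at least 5 CPM. With 1 library left out, Itga6 ran from -0.093 to 0.13, Itga3 from -0.098 to 0.48, Itga2b from -0.25 to 0.39 and Itgax from -0.42 to 0.093. With 1 library left out, the difference of the log2 Lamc1 to Lamc3 ratio ran from -0.033 to 0.34 and that of Itga6 to Itga3 from -0.57 to 0.23. The other 7 ratios kept their direction, also with a prior count.

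With the replicate number as a block, 14 members were lower in neonates (13 and Itgal) and 0 higher. Deviations of replicate 1 in neonates and adults had a correlation of -0.015 across 13843 genes. With 2 libraries per age, this cannot show whether the numbers pair pools across ages.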

Other observations

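Genes named for binding integrin tails were left out by the symbol rule. Itgb1bp2, melusin of striated muscle, had 3.32 and 4.06 CPM in neonates and 0.638 and 0.554 CPM in adults (log2 fold change 2.62, standard error 0.36, edgeR adjusted p = 0.00025). It reached 1 CPM only in the neonatal libraries and so had to differ in order to pass the filter. Itgb3bp, a centromere protein in spite of its name, had 27.8 and 23.9 CPM against 12.6 and 10.9 CPM (log2 fold change 1.14, standard error 0.13, adjusted p = 0.00011 in edgeR). Both were named after their values were seen.

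By RefSeq gene order, these 2 pairs of members lie next to each other with 0 protein-coding genes between their ends: Itga2 with Itga1 and Itgam with Itgax. Itga1 and Itga2 were both called higher in adults, whereas of the other pair Itgam was called and Itgax was not.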
